A study of Rattus norvegicus with 30 samples.

Results

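The genes described here are 42 of the 21993 genes listed for these libraries. They make amino acids, carry them across the membrane or join them to tRNA, and they were chosen by symbol. By role they were 8 genes of serine, glycine and one-carbon synthesis, 6 of other amino acid synthesis, 9 amino acid transporters and 19 cytosolic tRNA synthetases. All 42 members were listed in every table, and all 42 passed the filter on low counts in each of the 13 comparisons. Hippocampal neurons from Wistar rat embryos at embryonic day 18 were kept for 7 days in culture and then exposed for 4 or 24 h to 30 µM dimethyl fumarate (DMF), 30 µM monomethyl fumarate (MMF) or 6 µM cannabidiol (CBD). Controls for DMF and MMF received the solvent DMSO, and controls for CBD received ethanol (EtOH), each at 0.2%. The neurons carried no transgene or mutation, and each of the 10 groups held 3 libraries numbered 1 to 3. By the study's methods each experiment was repeated 3 times. Each drug was compared with its own vehicle at the same time, in normalised read counts per gene.

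Cells take up many amino acids through membrane carriers and can make others, such as serine and asparagine, from sugar intermediates. The tRNA synthetases load amino acids onto their tRNAs, which is how amino acids enter protein synthesis. Many genes of these groups are textbook targets of ATF4, a transcription factor made in larger amounts when amino acids run short or when electrophiles, unfolded protein or damaged mitochondria activate the kinases that phosphorylate eIF2α. DMF is an electrophile that reacts with thiols. It carries both of its acid groups as methyl esters, whereas MMF carries only one of them as an ester.

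The libraries held 15108132 to 25367834 reads on genes, with a median of 20088658. A member's median over the 30 libraries lay between 94 reads for Slc1a5 and 7336 reads for Slc7a5. Summed markers of 8 genes each lay between 3486 and 4900 CPM (reads scaled to the same library total) for neurons and between 2047 and 5391 CPM for astrocytes, so the cultures labelled as neurons also held astrocyte transcripts. Summed markers of microglia stayed between 2.91 and 15.8 CPM, those of endothelial cells and fibroblasts between 33.7 and 118 CPM, those of the oligodendrocyte lineage between 466 and 1093 CPM, and those of dividing cells between 101 and 382 CPM. In such bulk cultures fewer cells of a type and less RNA per cell cannot be told apart. The 3 CBD 24 h libraries differed over the members. At the median, the ratio to the vehicle was lowest in replicate 1, higher in replicate 2 and highest in replicate 3. The CBD results at 24 h are therefore given with and without replicate 1.

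The promoters were read for the letters TGATGNAA, the composite element to which ATF4 binds with a C/EBP partner. RefSeq promoter windows, each running from 250 bases before to 50 after a gene's start in build GRCr8, matched 36 of the 42 members. The element stood on either strand in 12 of these 36 windows (33.3%), against 3.98% of 33469 windows of the same length and 3.35% of 21851 windows of protein-coding genes. Of the 12 genes, 2 belonged to other amino acid synthesis (Pck2, Pycr1), 3 were transporters (Slc1a4, Slc38a1, Slc7a1) and 7 were synthetases (Aars1, Cars1, Iars1, Mars1, Nars1, Tars1, Yars1). None of the 7 serine and one-carbon genes with a window held it, and this says only that these letters are not in those windows. The antioxidant response element to which Nrf2 binds, searched as TGACNNNGC on both strands, stood in 7 of 36 windows (19.4%) against 12.1% of all windows, and the NF-Y box CCAAT stood in 20 of 36 (55.6%) against 37.5%. A match of letters describes the sequence and is not evidence of binding. The stretches below, each of 60 bases, belong to members whose counts or fold changes are given further on. They are written 5′ to 3′ along the gene's own strand, with the element, or its reverse complement, in capitals.
Slc7a1, chr12:11664428-11664487, plus strand: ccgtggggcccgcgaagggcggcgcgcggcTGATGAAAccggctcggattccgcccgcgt
Slc1a4, chr14:98761753-98761812, minus strand: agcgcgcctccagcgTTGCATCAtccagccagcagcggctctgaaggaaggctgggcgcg
Iars1, chr17:15193653-15193712, minus strand: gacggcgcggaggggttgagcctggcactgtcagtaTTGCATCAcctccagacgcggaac
Aars1, chr19:55908344-55908403, plus strand: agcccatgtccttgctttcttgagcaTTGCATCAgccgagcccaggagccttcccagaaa
Mars1, chr7:65023754-65023813, minus strand: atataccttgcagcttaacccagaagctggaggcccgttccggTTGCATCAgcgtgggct
Pck2, chr15:32997603-32997662, plus strand: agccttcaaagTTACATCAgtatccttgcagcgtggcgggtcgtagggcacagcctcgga
Pycr1, chr10:106420910-106420969, minus strand: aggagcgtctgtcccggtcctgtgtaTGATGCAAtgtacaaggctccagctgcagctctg

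After 4 h of DMF, 3 members rose and none fell: Mthfd2, Psph and Slc7a1. Called genes (limma, adjusted p under 0.05) made up 3.41% of the 14208 genes tested, and called genes that were higher made up 1.87%. The fit with the replicate number as a block takes libraries of the same number as paired. With it 15 members rose and 3 fell, against 11.5% of all genes in each direction and 23.0% in all. By role and with the block, 2 of 8 serine and one-carbon genes, 1 of 6 other synthesis genes, 7 of 9 transporters and 5 of 19 synthetases rose. The members called lower with the block were 1 other synthesis gene, Cth, and 2 synthetases, Qars1 and Farsa. Of all 42 members, 30 had a log2 fold change above 0, with a median of 0.09, against 50.6% of all genes. The DMF and DMSO libraries did not overlap for 10 members that were higher and 3 that were lower, beside 13.0% and 13.3% of all genes.

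Mthfd2 (ENSRNOG00000010833, chromosome 4, 115811139 to 115822608 in mRatBN7.2) encodes the mitochondrial enzyme that oxidises methylene tetrahydrofolate in one-carbon metabolism. Its normalised counts were 1069, 918 and 1367 in the DMF libraries and 650, 537 and 608 in the DMSO libraries at 4 h. All 3 DMF libraries lay above all 3 DMSO libraries, and the log2 fold change was 0.89 (SE 0.15, adjusted p = 0.0245 by limma, 4.17e-06 with the block). Psph (ENSRNOG00000000925, chromosome 12, 26883133 to 26905074), the phosphatase of the last step of serine synthesis, read 770, 765 and 800 in DMF against 580, 559 and 455 in DMSO. The groups did not overlap, and the change was 0.56 (SE 0.11, adjusted p = 0.0339 by limma, 0.000286 with the block). Its neighbours in serine synthesis, Phgdh and Psat1, had log2 fold changes of 0.02 and 0.17 and passed neither fit. Slc7a1 (ENSRNOG00000000924, chromosome 12, 6628007 to 6703849), a carrier of arginine and lysine, read 2078, 2107 and 3243 in DMF against 1356, 1224 and 1567 in DMSO. DMF replicate 3 was the highest of the 6, the groups did not overlap, and the change was 0.82 (SE 0.17, adjusted p = 0.0457 by limma, 1.86e-06 with the block).

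Without the block, leaving out 1 library changed these calls. The 6 fits that each left out 1 library called 0.197% to 1.08% of all genes, against 3.41% with all 6 libraries. Mthfd2 stayed past the threshold without DMF replicate 3 (0.73, adjusted p = 0.0398 by limma) and without DMSO replicate 1 (0.95, 0.0489). Without any one of the other 4 libraries it did not pass, with an adjusted p of up to 0.0797. Psph and Slc7a1 did not pass without any one of the 6 libraries, with log2 fold changes of 0.45 to 0.63 and 0.61 to 0.93 and adjusted p of 0.0524 to 0.122 and 0.0541 to 0.128 by limma.

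The members that rose at 4 h only with the block changed less. Among transporters, the glycine carrier Slc6a9 changed by 0.45, the system A carrier Slc38a2 by 0.40, the serine and alanine carrier Slc1a4 by 0.39 and the cationic carrier Slc7a3 by 0.41 on the log2 scale. The partners of the large neutral amino acid carrier, Slc7a5 and Slc3a2, changed by 0.18 and 0.23. Slc1a4 read 3952, 4381 and 4993 in DMF against 3283, 3531 and 3282 in DMSO, with no overlap (adjusted p = 0.0596 by limma, 0.000307 with the block). Among synthetases the block called Cars1 (0.43), Iars1 (0.38), Aars1 (0.31), Yars1 (0.16) and Nars1 (0.14), which load cysteine, isoleucine, alanine, tyrosine and asparagine. Aldh18a1, which starts proline synthesis from glutamate, changed by 0.39. All 5 of these synthetases, Slc1a4 and Slc7a1 were among the members with the ATF4 element in the promoter window. Mthfd2, Psph, Slc6a9, Slc38a2, Slc7a5 and Slc3a2 also rose with the block, and their windows did not hold the element. Pck2, Pycr1, Slc38a1, Mars1 and Tars1 held it and were not called at 4 h. The 12 members with the element had a median log2 fold change of 0.15 and the 24 without it one of 0.05, given as a description. The 2 medians were 0.20 and 0.17 for DMF at 24 h, 0.21 and 0.15 for CBD at 4 h and 0.41 and 0.44 for CBD at 24 h, so the members with the element were not the higher ones throughout.

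Cth, the enzyme that makes cysteine from cystathionine, read 107, 154 and 120 in DMF against 161, 223 and 140 in DMSO at 4 h. The groups overlapped, each DMF library lay below the DMSO library of its number, and the change was -0.45 (adjusted p = 0.29 by limma, 0.0282 with the block). Qars1, the glutamine synthetase for tRNA, read 1268, 1203 and 1077 in DMF against 1464, 1459 and 1353 in DMSO, without overlap and with a change of -0.27 (adjusted p = 0.112 by limma, 0.00364 with the block). Farsa, the catalytic subunit of phenylalanine tRNA synthetase, changed by -0.19, while Farsb, its other subunit, had a value of 0.14 and passed neither fit. Asns, asparagine synthetase, read 1060, 904 and 1235 in DMF against 1045, 949 and 1193 in DMSO, and the groups covered the same range.

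**Figure D1:**
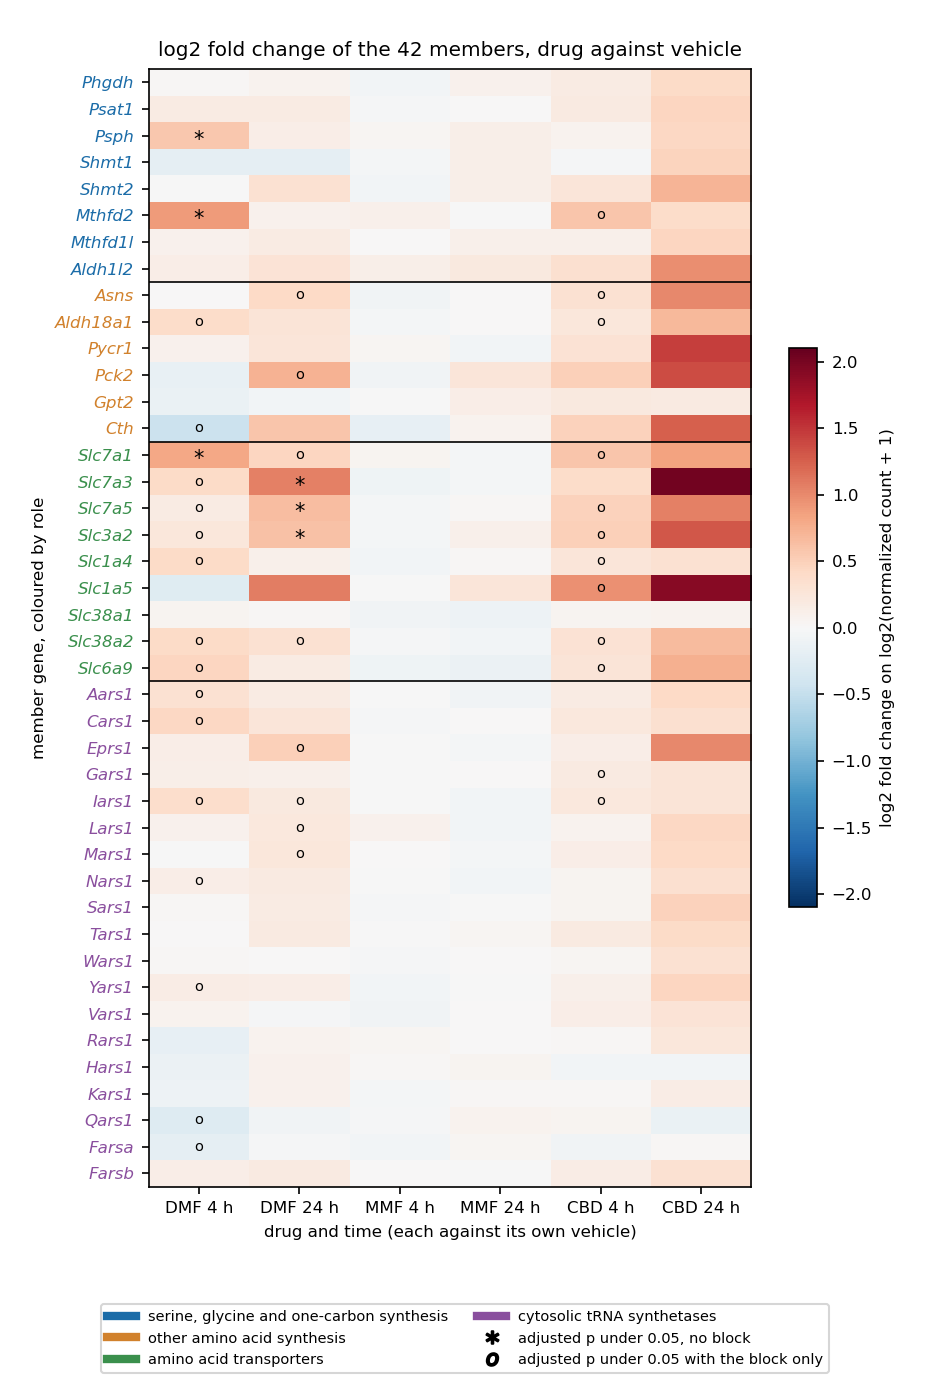
Heat map of log2 fold changes (colour) for the 42 members (vertical axis, by role) in the 6 comparisons of a drug with its vehicle (horizontal axis). A star marks adjusted p under 0.05 by limma without the replicate block, and an open circle a member called only with it: 3 stars stand in each DMF column and none in the MMF and CBD columns.

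After 24 h of DMF, the 3 members that rose were all transporters: Slc7a3, Slc7a5 and Slc3a2. Called genes made up 3.97% of the 13967 genes tested, and called genes that were higher 1.88%. With the block 11 members rose and none fell, against 12.9% of all genes called, 5.81% higher and 7.10% lower. These were 5 of 9 transporters, 4 of 19 synthetases and 2 of 6 other synthesis genes, with none of the 8 serine and one-carbon genes. Of the 42 members 37 had a log2 fold change above 0, with a median of 0.18, against 48.3% of all genes. The libraries did not overlap for 12 members, all higher in DMF, beside 11.3% of all genes that were higher in this way.

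Slc7a3 (ENSRNOG00000004133, chromosome X, 66210081 to 66215708), a cationic amino acid carrier, read 313, 343 and 541 in DMF against 163, 176 and 220 in DMSO at 24 h. DMF replicate 3 was highest, the groups did not overlap, and the change was 1.06 (SE 0.21, adjusted p = 0.0257 by limma, 0.000229 with the block). Slc7a5 (ENSRNOG00000018824, chromosome 19, 49935220 to 49963823), the transport subunit of the large neutral amino acid carrier, read 7706, 9386 and 11260 in DMF against 6060, 6241 and 5534 in DMSO. The lowest DMF library lay above the highest DMSO library, and the change was 0.65 (SE 0.12, adjusted p = 0.0243 by limma, 0.00248 with the block). Slc3a2 (ENSRNOG00000018487, chromosome 1, 205604468 to 205618931), the glycoprotein that holds this carrier in the membrane, read 5119, 6224 and 7371 in DMF against 3929, 4140 and 3957 in DMSO. Again no library overlapped, with a change of 0.62 (SE 0.12, adjusted p = 0.0227 by limma, 0.00111 with the block). The libraries DMF 24 h replicate 1 and replicate 3 could each be left out and all 3 transporters stayed called. Without DMF replicate 1 the changes were 1.22, 0.79 and 0.76 for Slc7a3, Slc7a5 and Slc3a2, and without DMF replicate 3 they were 0.82, 0.52 and 0.49. Without DMSO replicate 3 only Slc7a3 was called (1.19, adjusted p = 0.0433 by limma). Without any of the other 3 libraries none of them was, with adjusted p reaching 0.129 for Slc7a3, 0.114 for Slc7a5 and 0.118 for Slc3a2. Over all genes, 2.81% were called without DMF replicate 1 and 8.35% without DMF replicate 3. Without any one other library 1.02% to 1.89% were called.

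The block added other members at 24 h. Pck2 (ENSRNOG00000018536, chromosome 15, 29027894 to 29037283), the mitochondrial enzyme that makes phosphoenolpyruvate, read 187, 198 and 326 in DMF against 126, 142 and 148 in DMSO. The groups did not overlap, and the change was 0.72 (adjusted p = 0.0981 by limma, 0.00872 with the block). Asns (ENSRNOG00000007546, chromosome 4, 35785237 to 35803423) read 1083, 1021 and 1655 against 958, 866 and 937, also without overlap, with a change of 0.41 (adjusted p = 0.223 by limma, 0.0332 with the block). Slc7a1 changed by 0.46 and Slc38a2 by 0.32. The synthetases called with the block were Eprs1 (0.50), which loads glutamate and proline, and Mars1 (0.23), Lars1 (0.23) and Iars1 (0.21), which load methionine, leucine and isoleucine. Eprs1 was called without the block only when DMF replicate 3 was left out (0.30, adjusted p = 0.0326 by limma). The glutamine carrier Slc1a5 read 56.4, 121 and 379 in DMF against 54.5, 67.4 and 73.3 in DMSO, so that most of its value of 1.08 (SE 0.55, adjusted p = 0.365 by limma) came from DMF replicate 3. Over all members, the median log2 ratio of a DMF library to the DMSO library of its number was 0.05, 0.11 and 0.38 for numbers 1, 2 and 3. A ratio above 0.5 was seen for 2, 4 and 16 of the 42 members, beside 6.92%, 6.03% and 5.77% of all genes.

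**Figure D2:**
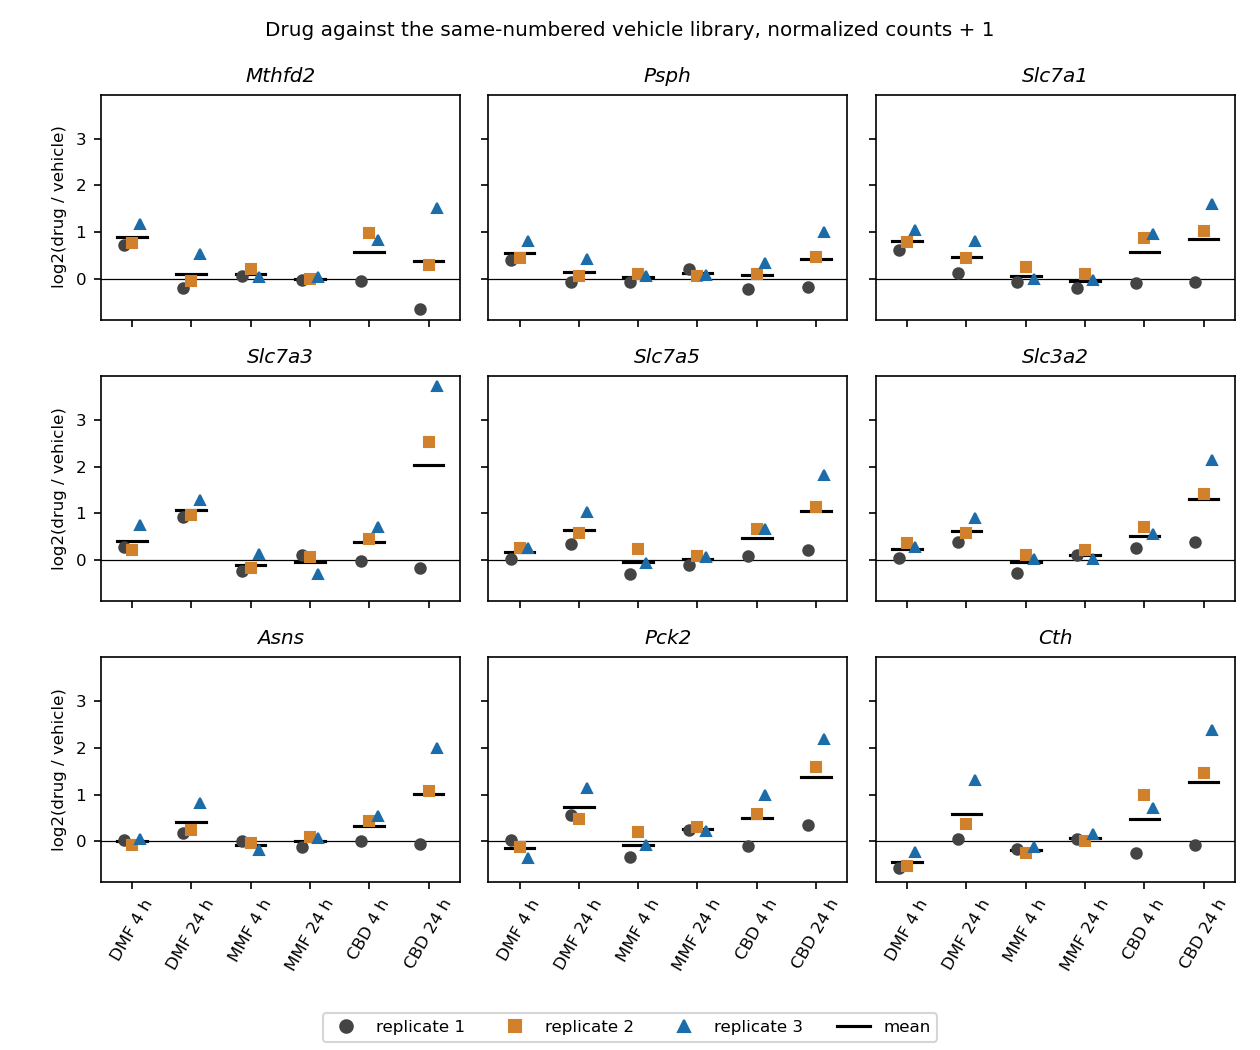
Log2 ratio of each drug library to the vehicle library of the same number (vertical axis) for 9 members in the 6 comparisons of a drug with its vehicle (horizontal axis). Points are the 3 replicates and lines their mean: Mthfd2 is above 0 in all 3 DMF pairs at 4 h, and Slc7a3 in CBD at 24 h spreads from just below 0 in replicate 1 to its highest value in replicate 3.

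With the replicate block, and not without it, the DMF changes were called different between times for 3 members. Mthfd2 read 480, 494 and 731 in DMF at 24 h against 551, 508 and 506 in DMSO, so that the groups overlapped again. Its change at 24 h minus that at 4 h was -0.79 (SE 0.23, adjusted p = 0.0757 by limma over 12 libraries, 0.00735 with the block). Cth read 143, 211 and 293 in DMF at 24 h against 139, 163 and 117 in DMSO. Each DMF library was above the DMSO library of its number, with the widest gap in replicate 3. Neither fit called Cth at 24 h alone. Its difference between times was 1.02 (SE 0.35, adjusted p = 0.127 by limma, 0.0278 with the block). Pck2 read 122, 110 and 94.7 in DMF at 4 h against 120, 120 and 122 in DMSO, and the difference between times was 0.88 (SE 0.27, adjusted p = 0.0864 by limma, 0.0326 with the block). Called genes in this test made up 4.12% of the 14432 genes tested, and with the block 13.2%. Without the block 0 of 42 members were called by limma, and DESeq2 called 2, beside 993 of 14428 genes. Only Mthfd2 became a call when a library was left out, without DMF 24 h replicate 3 (-0.99, adjusted p = 0.0134 by limma). That fit called 4.49% of all genes. Within DMSO alone, 24 h against 4 h called 0 members by limma and by edgeR, beside 0.0% of 13968 genes. DESeq2 also called 0 members, beside 48 of 13965 genes. In that comparison 11 members were lower and 1 higher at 24 h without overlap, beside 7.51% and 8.31% of all genes.

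**Figure D3:**
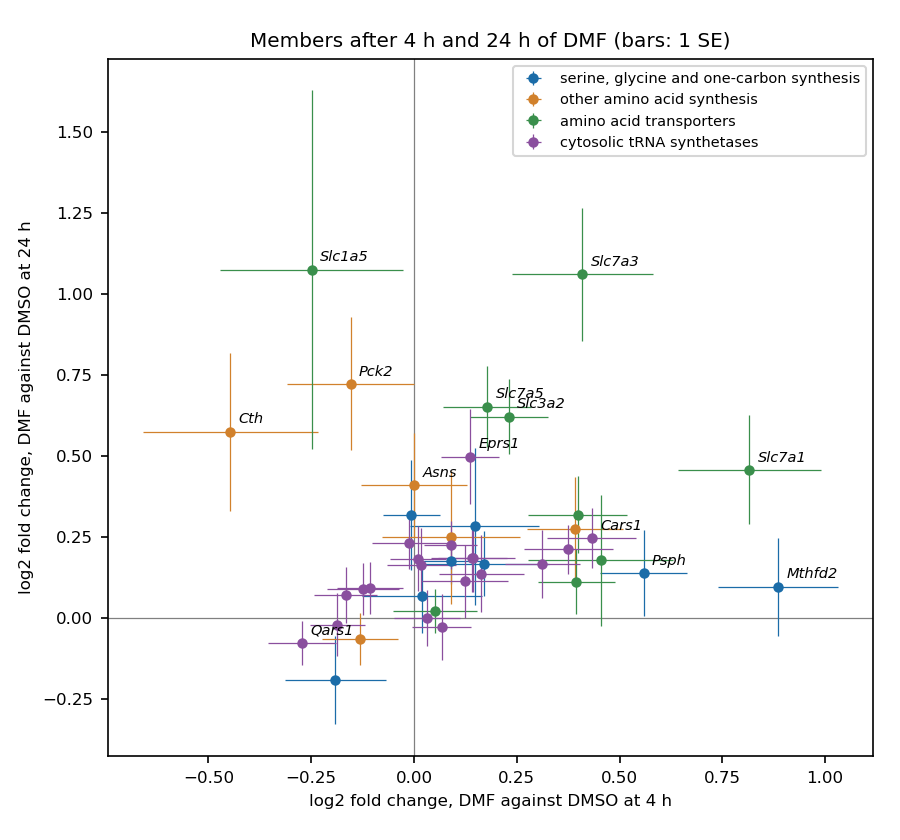
Log2 fold change of DMF against DMSO at 4 h (horizontal axis) and at 24 h (vertical axis) for the 42 members, with bars of 1 SE. Mthfd2 lies far right and low (0.89 and 0.10), Slc7a3 far up (0.41 and 1.06), and Cth is below 0 at 4 h and above 0 at 24 h (-0.45 and 0.58).

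MMF at the same dose, time and vehicle called no member. At 4 h the 42 log2 fold changes lay between -0.18 and 0.13, with a median of -0.02, and limma called 0 members, beside 0.0% of 14032 genes, with 0 members at an unadjusted p under 0.05. DESeq2, edgeR and the block called 0 members as well. No member's MMF libraries stood clear of its DMSO libraries, beside 2.76% of all genes. At 24 h the values lay between -0.13 and 0.26 with a median of 0.01. Limma called 0 members, beside 0.00707% of all genes, and 0 had an unadjusted p under 0.05. DESeq2, edgeR and the block also called 0, beside 1.38% of all genes called with the block. The MMF libraries stood clear of DMSO for Pck2 and Gpt2, which were higher, and Lars1, which was lower, beside 4.62% and 5.11% of all genes. Pck2 read 157, 185 and 180 in MMF against 133, 149 and 155 in DMSO, with a value of 0.25 (adjusted p = 0.952 by limma).

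DMF and MMF, which differ by 1 methyl ester, were also compared directly as 1 pair of compounds at 2 times, both at 30 µM. At 4 h 1 member differed without the block, beside 1.61% of 14200 genes, and 17 with it (15 higher in DMF and 2 lower), beside 23.6%. Mthfd2 read 1059, 908 and 1351 in DMF against 675, 613 and 621 in MMF, without overlap. It was higher in DMF by 0.78 on the log2 scale (95% interval 0.46 to 1.10, adjusted p = 0.0403 by limma). Without any one of the 6 libraries the difference was 0.62 to 0.91 with an adjusted p of 0.0717 to 0.141 by limma. Those 6 fits called 0.0% to 0.444% of all genes. Psph differed by 0.52 (adjusted p = 0.053 by limma, 0.000231 with the block) and Slc7a1 by 0.75 (0.0711 and 2.35e-06). At 24 h 2 members differed without the block, beside 3.56% of 14233 genes, and 11 with it, all higher in DMF, beside 12.2%. Slc7a3 was higher in DMF by 1.11 (95% interval 0.68 to 1.54, adjusted p = 0.017 by limma) and Slc7a5 by 0.63 (0.33 to 0.93, adjusted p = 0.0363). The carrier partner Slc3a2 differed by 0.51 (0.22 to 0.80, adjusted p = 0.0704 by limma, 0.00788 with the block), and it was called without DMF 24 h replicate 1 (0.65, adjusted p = 0.0282). Slc7a5 stayed called without DMF 24 h replicate 1 (0.77) or replicate 3 (0.50) and not without any one of the other 4 libraries, with an adjusted p of up to 0.173 by limma. Slc7a3 stayed called without any one of the 3 DMF libraries or MMF replicate 3, and not without MMF replicate 1 or 2, with an adjusted p of up to 0.0896 by limma. Over all genes, the fits without 1 library at 24 h called 1.10% to 5.00%.

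Differences that no fit called were bounded by their 95% intervals, given here for 3 examples. Asns at 4 h differed by 0.07 (95% interval -0.21 to 0.35), Phgdh at 24 h by -0.03 (-0.27 to 0.22) and Mthfd2 at 24 h by 0.10 (-0.25 to 0.44). These intervals leave room for differences of either sign. Each DMF library thus read above each MMF library for Mthfd2 at 4 h and for Slc7a3 at 24 h, while the synthetase Rars1 at 4 h was lower in DMF by 0.21 only with the block (adjusted p = 0.0265 by limma).

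CBD at 4 h called no member without the block. Limma called 1 of 14193 genes (0.00705%) and 0 members. DESeq2 and edgeR called 0 members each, beside 18 and 1 of all genes. With the block 12 members rose and none fell, beside 2.33% of all genes called, 1.66% higher and 0.669% lower. They were 7 of 9 transporters, 2 of 6 other synthesis genes, 2 of 19 synthetases and 1 of 8 serine and one-carbon genes. Of the 42 members 39 had a value above 0, with a median of 0.18, against 49.7% of all genes. The groups stood apart for 3 members, all higher, beside 4.70% of all genes higher in this way and 5.25% lower.

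The values of the 3 members whose groups stood apart follow, all of them transporters. Slc3a2 read 5705, 8204 and 6478 in CBD against 4770, 5023 and 4412 in EtOH at 4 h, without overlap, with a change of 0.51 (SE 0.13, adjusted p = 1 by limma, 9.45e-05 with the block). Slc7a5 read 7552, 11437 and 10835 against 7093, 7163 and 6787, again apart, with a change of 0.48 (adjusted p = 1 by limma, 0.00126 with the block). Slc1a5, the carrier of neutral amino acids such as glutamine, read 94.3, 252 and 154 against 90.6, 77.0 and 71.1, with a change of 0.95 (adjusted p = 1 by limma, 0.0153 with the block). In all 3 carriers CBD replicate 1 lay nearest to the EtOH libraries. Slc7a1 and Mthfd2 each changed by 0.58, Asns by 0.33, Slc38a2 by 0.30, Slc6a9 by 0.28, Slc1a4 by 0.25 and Aldh18a1 by 0.24, and the synthetases Iars1 and Gars1 by 0.22 and 0.19. The median log2 ratio of a CBD library to its EtOH partner over the 42 members was -0.02, 0.29 and 0.26 for numbers 1, 2 and 3.

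CBD at 24 h gave the widest spread between libraries of 1 group. Limma called 0 of 42 members with or without the block, beside 0.114% and 0.504% of 14079 genes, while 11 members without and 27 with the block had an unadjusted p under 0.05, as did 1384 and 2665 of all genes. DESeq2 and edgeR also called 0 members. Even so, 40 of 42 members had a value above 0, with a median of 0.43, against 49.1% of all genes. By role the medians were 0.45 for serine and one-carbon genes, 1.13 for other synthesis genes, 0.85 for transporters and 0.32 for synthetases. The CBD and EtOH libraries stood apart for 4 higher members and 1 lower member, beside 7.35% and 8.59% of all genes.

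The values show where the spread lay. Slc7a3 read 171, 796 and 2692 in CBD against 193, 136 and 202 in EtOH at 24 h, with a value of 2.03 (SE 0.82, adjusted p = 0.486 by limma). CBD replicate 1 lay within the EtOH libraries, and the other 2 lay above them. Slc1a5 read 52.7, 566 and 758 against 61.6, 108 and 63.3, with replicate 1 below every EtOH library. Slc3a2 read 5452, 12667 and 19192 against 4188, 4775 and 4331, with a value of 1.31 (SE 0.38, adjusted p = 0.379 by limma) and no overlap. Slc7a5 read 6477, 14826 and 23608 against 5610, 6791 and 6657, where CBD replicate 1 fell among the EtOH libraries. Among synthesis genes, Pycr1, the last enzyme of proline synthesis, read 407, 1260 and 1981 against 314, 375 and 413. Pck2 read 133, 391 and 621 against 105, 130 and 136. Replicate 1 lay within the EtOH range for both. Asns read 878, 1848 and 4298 against 921, 869 and 1071, and Mthfd2 382, 643 and 1627 against 601, 525 and 571. In Mthfd2 CBD replicate 1 was the lowest of the 6 libraries and CBD replicate 3 the highest. Shmt1 did not follow this order: it read 370, 366 and 396 against 244, 268 and 305, without overlap.

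Over all members, the median log2 ratio to the EtOH library of the same number was -0.07, 0.44 and 0.97 for CBD 24 h numbers 1, 2 and 3. The ratio passed 0.5 for 1, 16 and 35 of the 42 members, beside 3.87%, 5.33% and 9.75% of all genes. All 19 synthetases lay below 0 in replicate 1, between -0.22 and -0.01. Eprs1, the synthetase with the largest value in this comparison, read 3971, 9747 and 15925 in CBD against 3989, 4330 and 4424 in EtOH. Qars1 and Hars1, the latter loading histidine, were the 2 synthetases with values below 0 (-0.13 and -0.05). Qars1, the 1 member whose CBD libraries all lay below its EtOH libraries, read 1240, 1241 and 1089 against 1282, 1389 and 1241.

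Without CBD 24 h replicate 1, 10 members were called, all higher, beside 0.788% of all genes. They were Slc1a5 (3.11), Slc7a3 (3.06), Pycr1 (2.11), Pck2 (2.00), Cth (1.93), Slc3a2 (1.82), Slc7a5 (1.56), Eprs1 (1.55), Shmt2 (1.16) and Aldh18a1 (1.03), with adjusted p between 0.0084 and 0.0305 by limma. This leaves 2 CBD libraries against 3 EtOH libraries, and it is 1 of the 6 fits that each leave out 1 library, singled out after its values were seen. Without any other single library 0 members were called, beside 0.0% to 0.142% of all genes. Outside the members, the zinc exporter Slc30a1 read 1046, 1037 and 1323 in CBD against 571, 572 and 576 in EtOH. Mt1, a metallothionein whose reads may be shared with near-identical copies, read 2285, 4102 and 3533 against 242, 266 and 122. Hmox1, haem oxygenase, read 446, 5355 and 17649 against 328, 274 and 205, and so separated the 3 CBD libraries as the members did. Why the 3 libraries differed was not tested. The CBD change at 24 h minus that at 4 h called 0 members by limma, with 1 at an unadjusted p under 0.05, beside 0.0% of 14503 genes. The block, DESeq2 and edgeR also called 0 members, with 0.0552% of all genes called with the block.

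**Figure D4:**
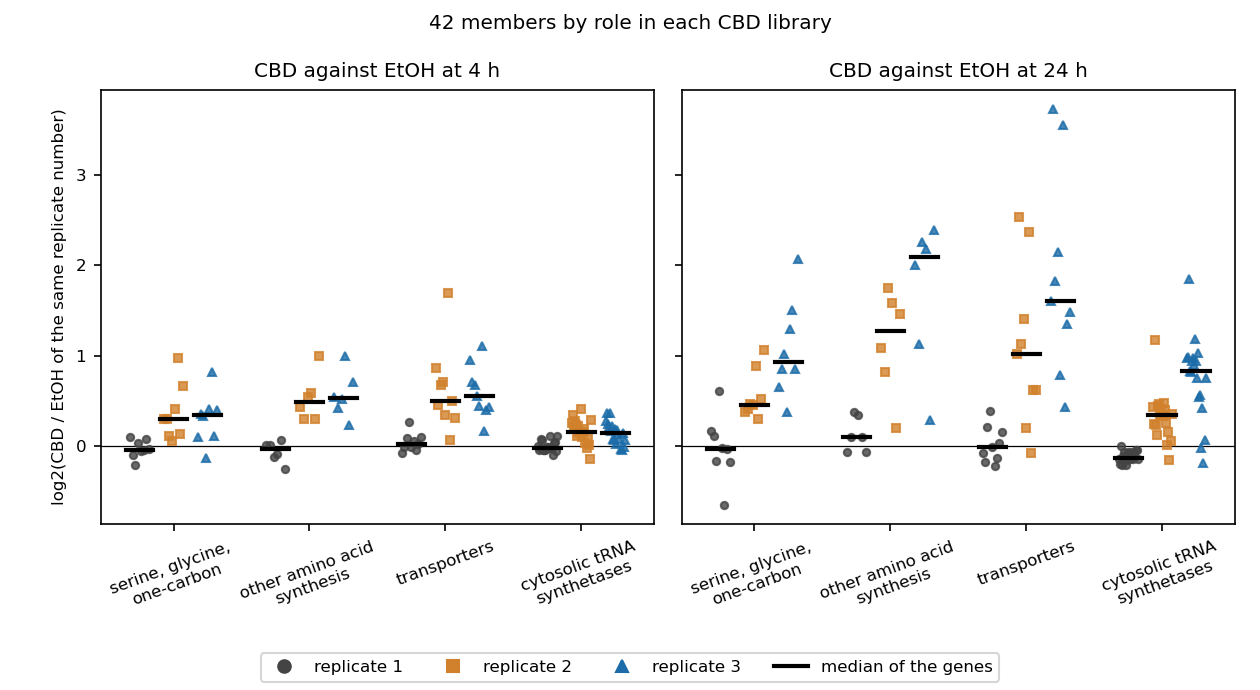
Log2 ratio of each CBD library to the EtOH library of the same number (vertical axis) at 4 and 24 h, with 1 point per member, split by role, and bars at the medians. At 24 h the points of replicate 1 lie around 0 (median -0.07 over the 42 members), those of replicate 2 higher (0.44) and those of replicate 3 highest (0.97).

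Side by side, and not compared because dose and vehicle differ, the log2 fold changes of DMF and of CBD at 4 h were 0.89 and 0.58 for Mthfd2, 0.82 and 0.58 for Slc7a1, 0.18 and 0.48 for Slc7a5, 0.00 and 0.33 for Asns, and -0.25 and 0.95 for Slc1a5. DMSO against EtOH, the comparison of the vehicles, called 0 members by limma at 4 h, beside 0.0% of 14088 genes and with 0 members at an unadjusted p under 0.05. At 24 h it called 0 members, beside 0.0% of 13989 genes and with 1 member at an unadjusted p under 0.05, and edgeR and DESeq2 called 0 at both times. The medians of the members between vehicles were 0.01 at 4 h and -0.05 at 24 h.

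Other genes of the same pathways, taken from lists of symbols, give the setting of these values. Of 22 tested regulators and targets of the ATF4 arm outside the members, 2 rose after 4 h of DMF (14 with the block). Beside them, 1.87% of all genes were called higher (11.5% with the block). After 24 h 7 of 21 rose (11 with the block), beside 1.88% and 5.81% of all genes. None fell in either fit at either time. Ddit3, the stress factor CHOP, read 626, 566 and 754 in DMF against 297, 278 and 293 in DMSO at 4 h, with a change of 1.15 (adjusted p = 0.0071 by limma). Atf4 itself changed by 0.30 at 4 h (adjusted p = 0.115 by limma, 0.0027 with the block). At 24 h the pseudokinase Trib3 changed by 2.90, the glutathione-degrading enzyme Chac1 by 1.32 and the cystine carrier Slc7a11 by 2.17. The paper counts Slc7a11 among the Nrf2-related genes raised by DMF at 24 h. Under CBD 0 of 21 were called at 4 h (10 with the block), beside 0.00705% of all genes (2.33% with the block). At 24 h 0 of 22 were called in either fit, beside 0.114% and 0.504% of all genes. There the count at an unadjusted p under 0.05 was 5 and with the block 14. The counts of all genes at this threshold are those given above for CBD at 24 h. Under MMF none was called without the block at either time. With the block 3 were called higher at 24 h, beside 1.38% of all genes called in either direction. Of the 13 mitochondrial tRNA synthetases, which load tRNA for the separate ribosomes of mitochondria, none was called at either time in DMF without the block, although 12 had values below 0 at 4 h (median -0.19, 2 of them called lower with the block). Among 18 tested amino acid carriers outside the members, Slc43a2 rose at 4 h (0.59) and Slc7a10 fell at 24 h (-1.04) under DMF. None of 23 and 22 tested amino acid and folate enzymes outside the members was called under DMF at 4 and 24 h without the block.

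Markers of other cell types moved under DMF at 24 h as well. All 8 dividing cell markers fell (median -1.03), 3 of 7 tested oligodendrocyte lineage markers fell (Pdgfra, Cspg4 and Sox10) and 1 of 8 astrocyte markers fell (Aldh1l1), beside 1.88% of genes called higher and 2.09% called lower. The summed astrocyte markers nevertheless read 4885, 5391 and 2969 CPM in DMF against 3902, 4641 and 2732 CPM in DMSO at 24 h, higher in each pair of the same number. The summed neuron markers read 3995, 3604 and 4348 CPM against 4379, 4279 and 4710 CPM at 24 h, and 3613, 3486 and 3969 CPM against 4068, 3887 and 4665 CPM at 4 h, lower in each pair at both times. At 4 h 1 of 8 neuron markers, Tubb3, fell. Under CBD at 24 h no marker gene was called in either fit, but the sums differed by library. The summed neuron markers read 4296, 4003 and 4068 CPM in CBD against 4311, 4319 and 4900 CPM in EtOH, and the summed astrocyte markers 4812, 4232 and 2155 CPM against 4630, 4715 and 2798 CPM. Both sums were thus below the EtOH library of the same number in replicates 2 and 3, where the members were higher, while in replicate 1 the astrocyte sum was above it and the neuron sum slightly below it. The summed oligodendrocyte lineage markers read 913, 997 and 532 CPM against 803, 1093 and 692 CPM. Whether these shifts had a part in the values of the members was not tested. The replicate number also moved with some members in every group. Summed astrocyte markers were lowest in number 3 in 10 of 10 groups, between 2047 and 2969 CPM, against 3609 to 4885 CPM in number 1 and 4035 to 5391 CPM in number 2. Phgdh, the first enzyme of serine synthesis and abundant in astrocytes, was highest in number 2 in 10 of 10 groups and lowest in number 3 in 8 of them, with medians of 145, 172 and 128 CPM for numbers 1, 2 and 3. The glycine carrier Slc6a9 was lowest in number 1 in all 10 groups. In contrast, 9 members were highest in number 3 in every group, among them Slc7a1, Pycr1, Gars1 and Iars1, and Iars1 had medians of 94.8, 101 and 114 CPM. Such differences recurred in the drug and vehicle groups alike, and the fit with the replicate block removes them.

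**Figure D5:**
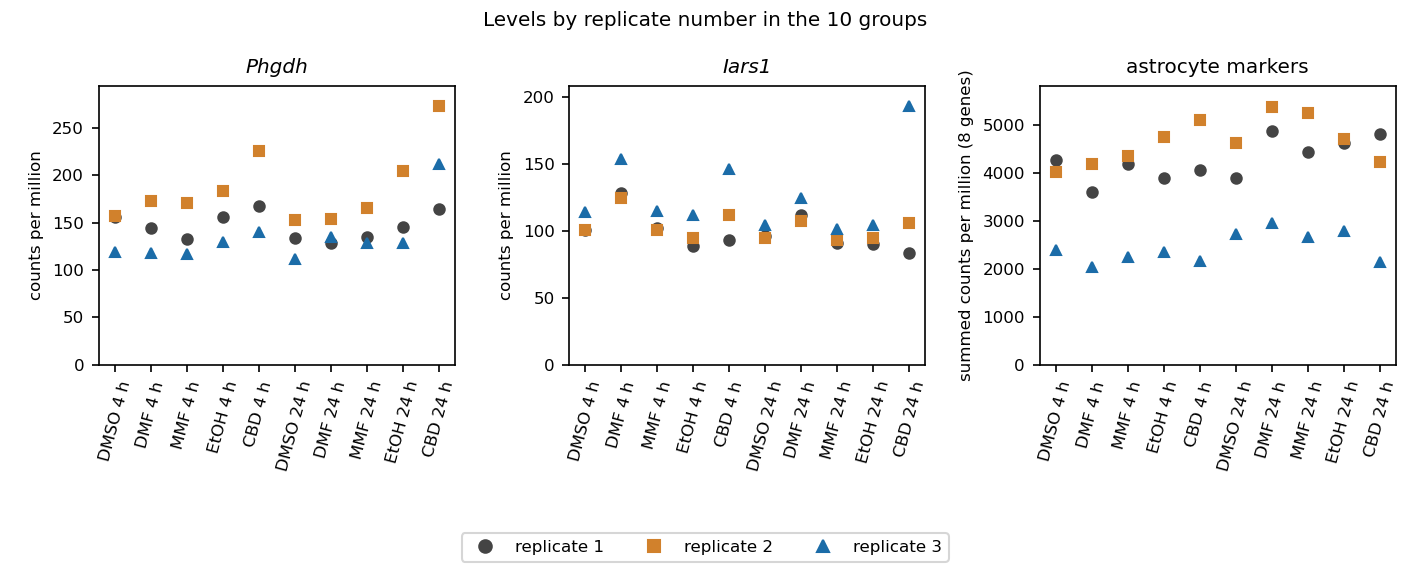
CPM of Phgdh, of Iars1 and of 8 summed astrocyte markers (vertical axes) in the 30 libraries, by group (horizontal axis) and replicate number. Number 3 is lowest for the astrocyte markers in every group, number 2 is highest for Phgdh and number 3 is highest for Iars1.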

How the data were processed

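RNA was sequenced from rat hippocampal neuron cultures in 10 groups of 3 libraries. Per the study's methods, adapters were removed with Cutadapt 4.4 and reads trimmed with Trimmomatic 0.39, aligned with HISAT2 2.2.1 to mRatBN7.2, counted on Ensembl 111 genes with HTSeq 2.0.3 and scaled with DESeq2 1.40.2. The strand setting of the counting is not given in the sources used here, so reads of overlapping antisense genes cannot be told apart. The authors deposited tables of counts divided by DESeq2 size factors, a normalised signal without length correction, and 11 of the 19 tables were used. Columns with the authors' own fold changes and p-values were not used.

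Whole reads were recovered from the steps of the normalised values: 100% of 1323000 values came out whole within 0.01, and 0 of 705696 reads differed between tables. Genes were kept by edgeR's filterByExpr on these reads. The main test was limma 3.58.1 with an expression trend, in R 4.3.3, on log2(normalised count + 1), with the 6 libraries of each comparison, and p-values were adjusted by Benjamini-Hochberg across every gene in the fit; fold changes are on this scale, which understates those of low genes. A call is an adjusted p under 0.05. The differences between times used the recovered reads of 12 libraries with median-ratio size factors.

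The sample titles gave each group the numbers 1 to 3, and the methods state that each experiment was repeated 3 times. No label says that a number stands for the same experiment in every group. Deviations from the group means correlated between libraries of the same number at 0.129 to 0.668 over all 13 comparisons, and at -0.577 to 0.185 between different numbers, so the numbers were taken to pair the libraries, and the fit with the replicate number as a block is given beside the main one. P-values of the main fit measure the spread between libraries within groups. Those of the fit with the block measure the spread left once differences between the 3 replicate numbers are taken out. Alternatives were DESeq2 1.42.0, edgeR 4.0.16 (with and without the block), TMM scaling, no filter on low counts, 0.1 added in place of 1, and each library left out in turn. The count tests ran on the recovered reads. The fits were tested on simulated data.

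The 42 members and all gene and marker lists were chosen with earlier results of these data known. A member was described with its statistics where its adjusted p was under 0.05 in the main fit or with the block. Other members are given by counts and ranges, and the few named with values outside this rule, such as those under CBD at 24 h, were chosen after their values were seen. One further list of genes is not reported here. CPM are recovered reads scaled to the same total of reads on genes in every library. Promoter windows came from RefSeq (GRCr8), matched by symbol, and their coordinates are not those of the files' build. Plots were drawn with matplotlib 3.10.9.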

Additional observations from a re-analysis of the deposited data

Results flagged for a closer look

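The DMF change at 24 h minus that at 4 h passed the threshold for 3 of the 42 members when the replicate number was a block, and these are given because the same contrast differed between times. With the block 13.2% of 14432 genes passed in this test, so the share of members was not above that of all genes. Cth differed by 1.02, being lower than DMSO at 4 h and higher at 24 h in each of the 3 pairs of libraries (adjusted p = 0.0278 by limma with the block, 0.127 without). At 24 h alone neither fit called Cth, and the gap was widest in replicate 3. Mthfd2 differed by -0.79, its value falling from 0.89 at 4 h to 0.10 at 24 h (0.00735 and 0.0757 by limma). Pck2 differed by 0.88, with values of -0.15 at 4 h and 0.72 at 24 h (0.0326 and 0.0864 by limma). Groups of 3 libraries are too small for a test of single outlying libraries. The libraries CBD 24 h replicate 1 and DMF 24 h replicate 3 are therefore described by their values and by fits without them. What sets these differences was not tested.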

How the results depend on the processing

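The number of members called moved with the replicate block, with DESeq2 and with single libraries. DMF against DMSO at 4 h called 3 members, 9 by DESeq2, 18 with the replicate block and 17 by edgeR with the block; at 24 h it called 3, 6, 11 and 13. DMF against MMF called 1, 7, 17 and 18 at 4 h and 2, 7, 11 and 11 at 24 h. CBD against EtOH at 4 h called 0, and 12 with either blocked fit. The DMF difference between times called 0, 2 by DESeq2, 3 with the block and 5 by edgeR with the block, and DMSO against EtOH at 24 h called 1 member by edgeR with the block only. Over all genes, edgeR with the block called 3212 and 1822 for DMF at 4 and 24 h, and 3329 and 1716 for DMF against MMF. It called 372 for CBD at 4 h, 1936 for the DMF difference between times and 100 for DMSO against EtOH at 24 h. Pairing by replicate number changed no other count of members called. For edgeR without the block, TMM scaling, no filter and a pseudocount of 0.1, all 13 counts were the same. Leaving out 1 library gave 0 to 1 calls for DMF at 4 h, 0 to 4 at 24 h, 0 for DMF against MMF at 4 h, 0 to 3 at 24 h, 0 to 10 for CBD at 24 h and 0 to 1 for the DMF difference between times. In the same order, these fits called 0.197% to 1.08%, 1.02% to 8.35% and 0.0% to 0.444% of all genes. For the last 3 comparisons the shares were 1.10% to 5.00%, 0.0% to 0.788% and 1.93% to 4.49%. The 4 calls for DMF at 24 h came from the fit that called 8.35% of all genes. No value changed its direction among the calls. The number of genes called among all genes also moved: for DMF at 4 h it was 485, 1024 by DESeq2 and 3274 with the block, for DMF at 24 h 554, 850 and 1803, for MMF at 24 h 1, 8 and 195, for CBD at 4 h 1, 18 and 330, for CBD at 24 h 16, 161 and 71, for DMF against MMF at 4 h 229, 744 and 3347, and at 24 h 506, 835 and 1740. With 3 libraries a group, and 94 reads at the median for the least covered member, small changes of Slc1a5, Pck2 or Cth are the least precise.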
